A study of Mus musculus with 6 samples.

Results

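The macrophage identity genes are 10 mouse genes used to recognise macrophages: Adgre1, Csf1r, Cd68, Mrc1, Cd163, Aif1, Fcgr1, Mertk, Ms4a7 and Maf. They were taken by gene symbol from the deposited count table, which holds 57186 genes, and all 10 were found. The rule that picks them uses their names and no measured value. Macrophages are phagocytes of the innate immune system that engulf dead cells, debris and antibody-coated particles. They depend on signals through the receptor Csf1r, and in tumours they arise largely from blood monocytes and differ widely in the scavenger and Fc receptors they carry.

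The table holds 6 bulk RNA libraries. The Y-KO group is 3 libraries from tumours of CRISPR Y-KO MB49 cells, and the Y-Scr group is 3 libraries from tumours of CRISPR Y-Scr MB49 cells. The labels do not spell the names out; from what is known of the study, Y-KO cells were edited to lose the Y chromosome and Y-Scr cells are the scrambled control. MB49 is a mouse bladder carcinoma line of male origin. Both groups grew as subcutaneous tumours in C57Bl/6J hosts up to 500 mm3, and RNA came from sorted CD45-negative cells. The age and sex of the hosts, whether a group is 1 clone, and whether replicates came from separate animals are not given in the sources used here. All p-values are thus set against differences among libraries that may be technical.

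Library totals ran from 42040955 to 52951031 counts. The summed level of 4 broadly expressed Y-linked genes (Kdm5d, Uty, Ddx3y, Eif2s3y) was 20.4 to 47.3 CPM (counts scaled to a common library size) in Y-KO and 296 to 344 CPM in Y-Scr, in the direction of the labels. The sort label did not hold at the RNA level: Ptprc, which encodes CD45, stood at 293, 298 and 134 CPM in Y-KO, against 521, 577 and 601 CPM in Y-Scr, so leukocyte RNA was present in every library. Within Y-KO, replicate 3 stood apart from replicates 1 and 2. The mean chi-square per highly counted gene was 189 between replicate 3 and each of the others and 13.3 between replicates 1 and 2. In Y-Scr it was 7.72 between replicates 2 and 3, and 30.7 and 41.5 between these and replicate 1. All lay above sampling noise, so no pair was taken for 1 library. The 10 genes are therefore given by library, and calls of the 10 that change without Y-KO replicate 3 are stated.

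Of the 10 genes, 4 rose in Y-KO tumours (Fcgr1, Aif1, Mertk and Mrc1), 1 fell (Cd163) and 5 did not pass the test (Cd68, Csf1r, Maf, Ms4a7 and Adgre1). All 10 passed the filter on low counts. The test was edgeR's quasi-likelihood test of Y-KO against Y-Scr over 17837 genes with Benjamini-Hochberg adjustment and a threshold of 0.05, and it called 7.82% of all tested genes higher and 8.27% lower. The groups did not overlap for 6 of the 10 genes, against 37.7% of all tested genes. The median log2 fold change of the 10 genes was 0.64, against -0.03 over all genes tested. In bulk samples, fewer or more cells of a type and less or more RNA per cell cannot be told apart. The call counts rested on single libraries. Without Y-KO replicate 3, 8 of the genes were higher and 1 was lower, where 16.0% and 17.7% of 18958 tested genes were called. Without any 1 of the other 5 libraries, 2 were higher, and at most 1 was lower. With the close pairs of libraries summed into 1 sample each, none of the 10 passed the edgeR test, and 5 (Aif1, Fcgr1, Cd163, Mertk and Ms4a7) had an unadjusted p under 0.05, as did 17.8% of the 19431 genes tested in that fit.

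**Figure D1:**
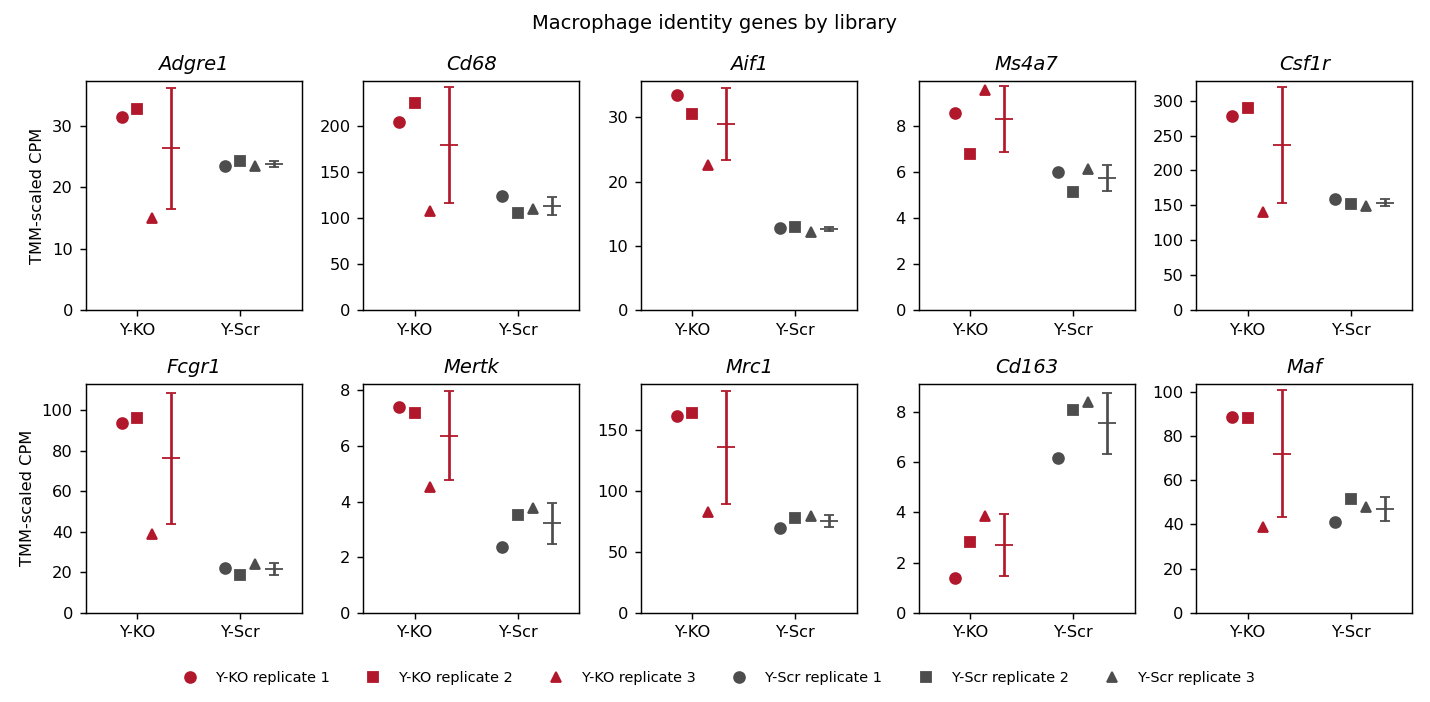
TMM-scaled CPM of each of the 10 genes by library, with the Y-KO libraries in red and the Y-Scr libraries in grey; the bar beside the points is the mean with its SD (n = 3). Y-KO replicates 1 and 2 lie above every Y-Scr library for 9 genes and below every Y-Scr library for Cd163, while Y-KO replicate 3 (triangle) lies lower than the other Y-KO libraries for 8 genes. The share of all tested genes with the pattern of replicates 1 and 2 was not counted. That of replicate 3 held for 39.2% of all tested genes.

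**Figure D2:**
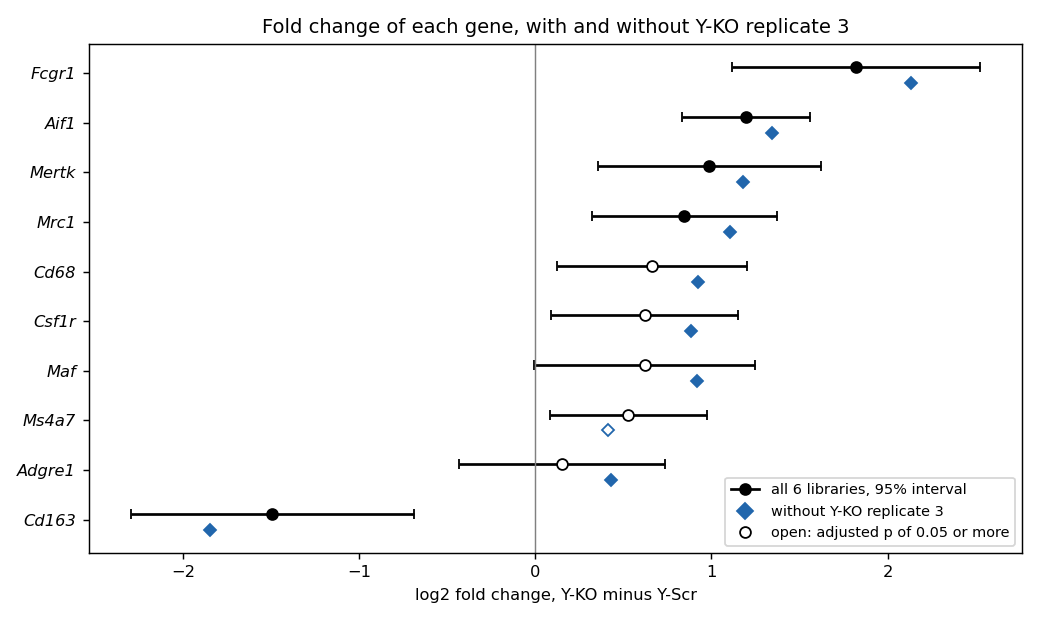
Log2 fold change of Y-KO minus Y-Scr for each gene, with its 95% interval over all 6 libraries (circles) and its value without Y-KO replicate 3 (diamonds); filled symbols passed the adjusted threshold of 0.05. Fcgr1 is highest at 1.82 and Cd163 lowest at -1.49, and Ms4a7 is the only gene with an unfilled symbol in both fits.

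The 5′ flanks of the genes are shown as a description only. RefSeq windows (GRCm38.p6, an older build than the GRCm39 of the counts) matched 7 of the 10 genes with 8 start sites, and the 250 bases before the start were searched on both strands for 3 motifs. The first was GGAAGT, 1 form of the site bound by ETS factors such as PU.1. The second was TTCNNNGAA, the interferon-gamma activated site, and the third was TGCTGA, a half-site of Maf factors. Shorter or other forms of these sites were not searched for. Of 32851 windows of this length, 19.7% held the first, 7.02% the second and 16.1% the third. Capitals mark a match in the 3 windows below, which belong to the gene with the largest rise, a scavenger receptor gene that rose and the gene that fell.
Fcgr1 (chr3:96293970-96294219, minus strand): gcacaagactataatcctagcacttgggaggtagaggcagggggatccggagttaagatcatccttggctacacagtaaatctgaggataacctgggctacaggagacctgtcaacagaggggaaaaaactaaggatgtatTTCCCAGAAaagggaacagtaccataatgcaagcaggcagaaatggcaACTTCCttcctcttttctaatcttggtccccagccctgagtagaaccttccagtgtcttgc
Mrc1 (chr2:14229164-14229413, plus strand): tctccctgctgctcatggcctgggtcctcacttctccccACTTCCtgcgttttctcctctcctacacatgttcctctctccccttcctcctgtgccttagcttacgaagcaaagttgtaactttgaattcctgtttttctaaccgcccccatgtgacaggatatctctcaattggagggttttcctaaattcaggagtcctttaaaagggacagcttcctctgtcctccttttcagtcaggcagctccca
Cd163 (chr6:124304401-124304650, plus strand): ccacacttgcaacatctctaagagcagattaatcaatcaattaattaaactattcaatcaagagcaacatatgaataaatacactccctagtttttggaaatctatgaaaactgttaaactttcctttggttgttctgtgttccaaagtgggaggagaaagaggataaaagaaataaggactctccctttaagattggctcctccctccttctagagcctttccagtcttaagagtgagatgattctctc
The Fcgr1 window held TTCCCAGAA, which fits the interferon-gamma site, and ACTTCC, which is GGAAGT on the other strand. The Mrc1 window held ACTTCC and the Cd163 window held none of the 3 motifs. Among all 8 windows, 3 held GGAAGT (Fcgr1, Mrc1 and 1 of the 2 Ms4a7 windows), 1 held the interferon-gamma site and none held the Maf half-site. The other 5 windows held none of the 3 motifs. They included those of Aif1 and Mertk, which rose, and of Cd68, so a match did not go with the direction of change. A match is a description of these letters and shows no binding.

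Among the general macrophage markers, Aif1 rose and Adgre1, Cd68 and Ms4a7 did not pass. Aif1 (chromosome 17, 35389967 to 35395044, GRCm39) encodes Iba1, a calcium-binding protein of macrophage membrane ruffles. It stood at 33.5, 30.6 and 22.7 CPM in Y-KO, against 12.7, 12.9 and 12.2 CPM in Y-Scr. All Y-KO libraries, replicate 3 included, lay above all Y-Scr libraries. The mean was 28.9 ± 5.63 CPM in Y-KO, against 12.6 ± 0.369 CPM in Y-Scr (SD, n = 3 each), a 2.29-fold rise (edgeR adjusted p = 0.00202), with a log2 fold change of 1.20 (SE 0.16). The call held without any 1 library, with an edgeR adjusted p of at most 0.0182, and missed the threshold with the close pairs summed (edgeR adjusted p = 0.0591).

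Adgre1 (chromosome 17, 57665691 to 57790527), which encodes the F4/80 antigen used to stain mouse macrophages, moved least. It was at 31.4, 32.6 and 14.98 CPM in Y-KO, against 23.5, 24.3 and 23.4 CPM in Y-Scr. Y-KO replicates 1 and 2 were above the Y-Scr libraries and replicate 3 was below them, at 63.2% of the Y-Scr mean. The log2 fold change was 0.15 (95% interval -0.43 to 0.74, edgeR adjusted p = 0.743). It was 0.43 without Y-KO replicate 3 (edgeR adjusted p = 0.00427) and -0.03 without Y-KO replicate 2.

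Cd68 (chromosome 11, 69555039 to 69556979) encodes a lysosomal and endosomal glycoprotein of the LAMP family. Its levels were 205, 226 and 108 CPM in Y-KO, against 124, 105 and 110.3 CPM in Y-Scr. Replicates 1 and 2 of Y-KO were 1.90-fold above the Y-Scr mean, and replicate 3 fell within the Y-Scr range, so the groups overlapped. The log2 fold change was 0.66 (SE 0.24, edgeR adjusted p = 0.0946), and 0.92 without Y-KO replicate 3 (edgeR adjusted p = 2.54e-07). DESeq2 called it (adjusted p = 0.0170).

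Ms4a7 (chromosome 19, 11298403 to 11313510), a tetraspanning membrane protein gene of the Ms4a family, was highest in Y-KO replicate 3, the Y-KO library in which 8 of the 10 genes were lowest. It stood at 8.56, 6.77 and 9.58 CPM in Y-KO replicates 1, 2 and 3 and at 5.99, 5.12 and 6.15 CPM in Y-Scr. The groups did not overlap, as for 17.5% of all tested genes with Y-KO above, yet the log2 fold change of 0.53 did not pass (SE 0.19, edgeR adjusted p = 0.104) and passed under none of 14 alternatives. Of the 12 other Ms4a genes looked at, 10 could be tested, 3 were higher and 3 were lower. Ms4a4a, expressed by macrophages, rose 3.19-fold to 69.3 ± 30.1 CPM in Y-KO, against 21.7 ± 4.67 CPM in Y-Scr (SD, n = 3 each). Ms4a6d rose 2.49-fold. Ms4a8a was called 4.33-fold higher (edgeR adjusted p = 0.0485), but its groups overlapped. It stood at 7.65, 9.77 and 1.48 CPM in Y-KO, against 1.97, 0.987 and 1.38 CPM in Y-Scr. The 3 that fell were Ms4a4b, a T cell gene, 4.87-fold lower, Ms4a1, which encodes the B cell antigen CD20, and Ms4a2, a chain of the mast cell IgE receptor. Without any 1 of the libraries other than Y-KO replicate 3, the counts were 0 or 1 higher and 2 or 3 lower, and without that library 6 higher and 4 lower. Neighbouring Ms4a genes resemble each other, so reads that fit several were left out.

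Among the surface receptors for growth factor, antibody and dead cells, Fcgr1 and Mertk rose and Csf1r did not pass. Fcgr1 (chromosome 3, 96190225 to 96201285) encodes CD64, the high-affinity receptor for immunoglobulin G, and is known to be induced by interferon-gamma. It had 93.8, 96.2 and 38.9 CPM in Y-KO, against 22.1, 18.6 and 24.1 CPM in Y-Scr. Replicate 3 was the lowest Y-KO library but still 180% of the Y-Scr mean, and the groups did not overlap. The mean was 76.3 ± 32.4 CPM in Y-KO, against 21.6 ± 2.81 CPM in Y-Scr (SD, n = 3 each), a 3.53-fold rise (edgeR adjusted p = 0.00600), with a log2 fold change of 1.82 (SE 0.31). The call held without any 1 library (edgeR adjusted p at most 0.0387) and was lost with the close pairs summed (edgeR adjusted p = 0.0994). Of the other Fc gamma receptor genes, the activating receptor gene Fcgr4 rose 2.22-fold to 36.2 ± 13.1 CPM in Y-KO, against 16.3 ± 0.896 CPM in Y-Scr (edgeR adjusted p = 0.0183). That call was lost without any 1 library other than Y-KO replicate 3 (edgeR adjusted p from 0.0607 to 0.0879). The inhibitory Fcgr2b, the activating Fcgr3 and the shared signalling chain Fcer1g did not pass, with log2 fold changes of 0.93, 0.24 and 0.19, nor did the neonatal receptor Fcgrt at -0.15. These calls turned on Y-KO replicate 3. Fcgr2b, for example, stood at 328, 348 and 130.1 CPM in Y-KO, against 139, 139 and 145 CPM in Y-Scr. Without that library 4 of the 5 other genes were higher and Fcgrt was lower.

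Mertk (chromosome 2, 128540876 to 128644814) is a receptor tyrosine kinase of the TAM group with which macrophages take up dying cells. It was a low-level gene with 358, 318 and 199 counts in Y-KO and 130, 156 and 201 counts in Y-Scr. Scaled, it stood at 7.39, 7.18 and 4.52 CPM in Y-KO, against 2.38, 3.50 and 3.76 CPM in Y-Scr, with no overlap. The 1.98-fold rise (log2 fold change 0.99, SE 0.28, edgeR adjusted p = 0.0443) was lost without any 1 library other than Y-KO replicate 3 (edgeR adjusted p from 0.0987 to 0.128). Of the other TAM genes, both receptors also rose: Axl stood at 470 ± 3.63 CPM in Y-KO, against 354 ± 2.41 CPM in Y-Scr, and Tyro3 at 24.8 ± 2.44 CPM in Y-KO, against 17.3 ± 0.467 CPM in Y-Scr (SD, n = 3 each; edgeR adjusted p = 0.00456 and 0.0209). Axl was as high in Y-KO replicate 3, at 471 CPM, as in replicates 1 and 2, at 466 and 473 CPM. The Tyro3 call was lost without Y-KO replicate 2 or any 1 Y-Scr library (edgeR adjusted p from 0.0629 to 0.0942). The bridging ligands Gas6 and Pros1 did not pass, with log2 fold changes of -0.15 and 0.69. Gas6 had 86.0, 81.9 and 151 CPM in Y-KO, against 125, 109 and 120.4 CPM in Y-Scr. Without Y-KO replicate 3, Gas6 was lower (log2 fold change -0.49, edgeR adjusted p = 0.000168) and Pros1 was higher (0.95, edgeR adjusted p = 0.00398).

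Csf1r (chromosome 18, 61233670 to 61265221) encodes the receptor that macrophages need for survival. It had 279, 289.6 and 141 CPM in Y-KO, against 159, 152 and 149 CPM in Y-Scr. Replicates 1 and 2 were 1.85-fold above the Y-Scr mean and replicate 3 was below every Y-Scr library, so the groups overlapped. The log2 fold change was 0.62 (95% interval 0.09 to 1.15, edgeR adjusted p = 0.108), and 0.88 without Y-KO replicate 3 (edgeR adjusted p = 2.90e-08). DESeq2 called it (adjusted p = 0.0247). In the annotation 15.1% of the exon bases of Csf1r are shared with Hmgxb3 on the opposite strand, where reads could not be assigned. Of its ligands, Csf1 was 1.20-fold higher at 261 ± 2.38 CPM in Y-KO, against 218 ± 5.88 CPM in Y-Scr (edgeR adjusted p = 0.0391). The Csf1 call was lost without any 1 library other than Y-KO replicate 3 (edgeR adjusted p from 0.0546 to 0.174), and with library size alone as the scaling (edgeR adjusted p = 0.275). The second ligand gene, Il34, stood at 61.1, 56.1 and 103 CPM in Y-KO, against 70.7, 67.3 and 65.9 CPM in Y-Scr and did not pass. Over the 8 colony-stimulating factor ligands and receptors other than Csf1r, 1 was higher (Csf1) and 1 was lower, the neutrophil receptor gene Csf3r, 2.73-fold.

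The scavenger receptor genes went opposite ways. Mrc1 (chromosome 2, 14234203 to 14336868), which encodes the mannose receptor CD206, had 162, 164 and 82.5 CPM in Y-KO, against 70.0, 77.7 and 79.5 CPM in Y-Scr. All Y-KO libraries were above all Y-Scr libraries, replicate 3 by a narrow margin at 109% of the Y-Scr mean. Its 1.80-fold rise (log2 fold change 0.85, SE 0.23, edgeR adjusted p = 0.0400) was lost without any 1 library other than Y-KO replicate 3 (edgeR adjusted p from 0.121 to 0.133). It was also lost with library size alone as the scaling (edgeR adjusted p = 0.0720). None of the 3 other mannose receptor family genes (Mrc2, Ly75 and Pla2r1) passed, with log2 fold changes of 1.55, 0.41 and -0.58, and 2 of the 3 (Mrc2 and Pla2r1) had an unadjusted p under 0.05. DESeq2 and limma called Pla2r1 lower (adjusted p = 0.0291 and 0.0339). Without Y-KO replicate 3, edgeR called Ly75 higher and Pla2r1 lower.

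Cd163 (chromosome 6, 124281615 to 124307486), the receptor for complexes of haemoglobin and haptoglobin, was the 1 gene of the 10 that fell. It had 67, 125 and 169 counts in Y-KO and 336, 360 and 448 counts in Y-Scr, or 1.38, 2.82 and 3.84 CPM in Y-KO, against 6.14, 8.08 and 8.37 CPM in Y-Scr. Every Y-KO library was below every Y-Scr library, as for 20.3% of all tested genes. Replicate 3, the lowest Y-KO library for most members, was the highest Y-KO library here. The mean was 2.68 ± 1.23 CPM in Y-KO, against 7.53 ± 1.21 CPM in Y-Scr (SD, n = 3 each), 2.81-fold lower in Y-KO (edgeR adjusted p = 0.0235), with a log2 fold change of -1.49 (SE 0.35). The call was lost without Y-KO replicate 2 or any 1 Y-Scr library (edgeR adjusted p from 0.0612 to 0.110). Within Y-KO, the fibroblast list had the same order by library as Cd163, and in Y-Scr it did not. Its summed level was 205, 211 and 679 CPM in Y-KO replicates 1, 2 and 3 and 1056 to 1110 CPM in Y-Scr. The same order in Y-KO held for the summed epithelial list, at 3276, 3321 and 3468 CPM, and for the other TAM genes, at 580, 590 and 650 CPM. The share of all genes with this order was not counted. The part of any of these lists in the Cd163 result was not tested.

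Maf (chromosome 8, 116409681 to 116434533), a basic leucine zipper transcription factor of differentiated macrophages also expressed by T cells, did not pass. It had 88.8, 88.5 and 39.1 CPM in Y-KO, against 41.1, 51.7 and 47.9 CPM in Y-Scr. Replicates 1 and 2 were 1.89-fold above the Y-Scr mean and replicate 3 was below every Y-Scr library. The log2 fold change was 0.62 (95% interval -0.01 to 1.25, edgeR adjusted p = 0.168), and 0.92 without Y-KO replicate 3 (edgeR adjusted p = 2.24e-06). Of the 12 macrophage transcription factor genes, 4 were higher, Cebpb, Klf4 and Tfec among them, and none was lower. The count was 7 higher and 2 lower without Y-KO replicate 3, and 0 to 2 higher without any 1 of the other libraries. Cebpb, a factor of myeloid inflammatory genes, rose 1.69-fold, and Klf4, a factor of monocyte differentiation, rose to 139 ± 21.9 CPM in Y-KO, against 92.7 ± 4.11 CPM in Y-Scr (SD, n = 3 each). Both calls were lost without Y-Scr replicate 2 or 3, and that of Klf4 also without Y-KO replicate 1 (edgeR adjusted p from 0.0517 to 0.0714). Tfec rose 2.29-fold at an edgeR adjusted p of 0.0498, a call that any 1 library other than Y-KO replicate 3 could undo (edgeR adjusted p from 0.118 to 0.182). Spi1, which encodes PU.1, was at 120 ± 45.1 CPM in Y-KO, against 98.8 ± 7.30 CPM in Y-Scr and did not pass, and was called higher without Y-KO replicate 3 (log2 fold change 0.56, edgeR adjusted p = 6.21e-05).

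Set beside each other by library, 8 of the 10 genes were lower in Y-KO replicate 3 than in both other Y-KO libraries, against 39.2% of all tested genes. The exceptions were Cd163 and Ms4a7. The median log2 ratio of replicate 3 to the mean of replicates 1 and 2 was -0.99 over the 10 genes and -0.02 over all tested genes. Fcgr1 was lowest at 40.9% of the mean of replicates 1 and 2, and Csf1r, Cd68 and Mrc1 lay close together between 49.7% and 50.6%. Against the Y-Scr mean, the median log2 ratio was 0.92 for replicates 1 and 2 and 0.03 for replicate 3. In replicate 3, 5 genes were above all Y-Scr libraries (Mrc1, Aif1, Fcgr1, Mertk and Ms4a7), 1 was within their range (Cd68) and 4 were below them (Adgre1, Csf1r, Maf and Cd163). The shares of all tested genes above, within and below that range were not counted, so this split is a description only.

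Ratios within a library describe the mix of these genes and do not depend on the scaling. Relative to Csf1r, 3 of the 9 other genes were higher in every Y-KO library than in every Y-Scr library (Fcgr1, Aif1 and Mrc1), against 1.71% of all genes with counts in every library. For Fcgr1 the log2 ratio was -1.57, -1.59 and -1.86 in Y-KO and -2.85, -3.04 and -2.63 in Y-Scr, a 2.24-fold difference between the group means. For Aif1 it differed 1.54-fold and for Mrc1 1.17-fold. Adgre1 and Cd163 were lower relative to Csf1r in every Y-KO library, where 24.8% of all genes were. Cd68 and Maf kept nearly the same ratio in both groups: the log2 ratio of Cd68 was -0.44, -0.36 and -0.39 in Y-KO, against -0.36, -0.54 and -0.44 in Y-Scr. That of Maf was -1.65, -1.71 and -1.85 in Y-KO, against -1.95, -1.56 and -1.64 in Y-Scr. Relative to Adgre1, 7 of 9 genes were higher in every Y-KO library, against 6.21% of all genes, Cd163 was lower, against 10.0%, and Ms4a7 overlapped.

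Relative to Ptprc, 9 of the 10 genes were higher in every Y-KO library, with fold differences from 2.61 for Adgre1 to 8.19 for Fcgr1, and Cd163 overlapped. This count is no mark of macrophage genes, since Ptprc itself was lower in Y-KO and 75.2% of all genes showed the same, while 1.63% were lower in every Y-KO library. Within Y-KO the ratio to Ptprc was nearly constant for Adgre1, at -3.22, -3.19 and -3.16 on the log2 scale, and for Maf, at -1.72, -1.75 and -1.78. For these genes, replicate 3 was low to the same extent as for Ptprc. The ratio to Ptprc was higher in replicate 3 for Ms4a7, at -5.10, -5.46 and -3.81, and for Cd163, at -7.73, -6.72 and -5.13. To a lesser extent this held for Aif1, at -3.13, -3.28 and -2.57, and for Mertk, at -5.31, -5.38 and -4.89. In replicate 3 the ratio was slightly higher for Csf1r, Cd68 and Mrc1. That of Fcgr1 was slightly lower, at -1.64, -1.63 and -1.79.

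**Figure D3:**
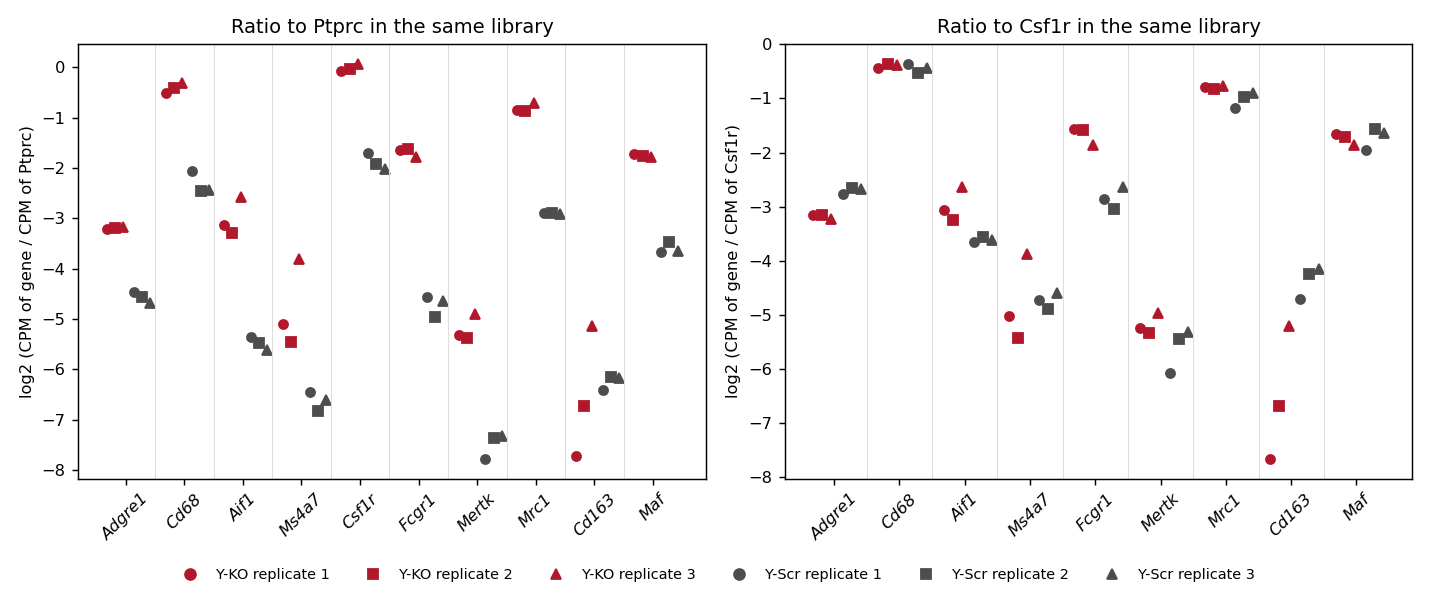
Log2 ratio of the CPM of each gene to that of Ptprc (left) and Csf1r (right) in the same library, Y-KO in red and Y-Scr in grey. Against Csf1r, Cd68 and Maf sit at one level in both groups, Fcgr1 is 2.24-fold higher in Y-KO, and Cd163 is lower with a wide spread within Y-KO.

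Levels of different genes were compared as CPM per kilobase of exon. In both groups Cd68 was highest, at 143 ± 50.04 in Y-KO and 90.0 ± 7.78 in Y-Scr (SD, n = 3 each), and Csf1r was next, at 40.9 ± 14.3 in Y-KO and 26.6 ± 0.873 in Y-Scr. The order below them differed. Fcgr1 came next in every Y-KO library with a mean of 29.5, ahead of Mrc1 at 21.4, while in every Y-Scr library Mrc1 at 11.9 was ahead of Fcgr1 at 8.34. Fcgr1 and Aif1 could not be ordered in Y-Scr, where their ranges overlapped and Fcgr1 was ahead in 2 of 3 libraries, nor could Mrc1 and Aif1 in Y-KO, where Mrc1 was ahead in 2 of 3. Cd163 was the lowest of the 10 in Y-KO at 0.491, below Mertk in every library. In Y-Scr it stood at 1.38, with a range that overlapped that of Ms4a7 and lay above that of Mertk.

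**Figure D4:**
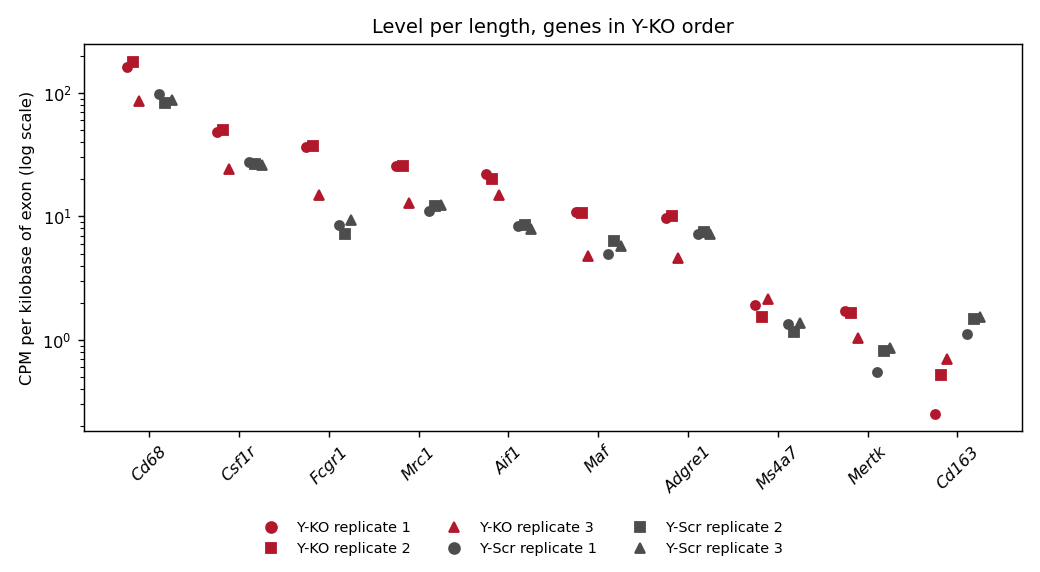
CPM per kilobase of exon for each gene on a log scale, ordered by the Y-KO mean, with Y-KO libraries in red to the left of the Y-Scr libraries in grey. The genes span from 143 for Cd68 to 0.491 for Cd163 in the Y-KO mean, and Cd163 is the only gene whose Y-KO points all lie below its Y-Scr points.

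Of 24 other macrophage genes, 22 were tested, 9 were higher, none was lower and 13 did not pass, with a median log2 fold change of 0.77. Higher calls numbered 19 without Y-KO replicate 3, 5 or 6 without any 1 of the other libraries, and 1 with the close pairs summed. The complement genes C1qc, C1qa and C1qb, which macrophages secrete, rose 2.27-fold, 2.34-fold and 2.09-fold, and the apolipoprotein gene Apoe rose 1.93-fold. Unlike 8 of the 10 genes, Apoe was highest in Y-KO replicate 3, at 175 CPM, against 141 and 148 CPM in replicates 1 and 2. The 12 monocyte genes were mixed, with 2 higher and 2 lower, and with 6 higher and 4 lower without Y-KO replicate 3. Without any 1 of the other libraries, 1 or 2 were higher and 0 or 1 lower. Chil3, which encodes a chitinase-like protein of inflammatory monocytes, rose 4.65-fold to 117 ± 58.6 CPM in Y-KO, against 25.2 ± 1.27 CPM in Y-Scr, and S100a4 rose 1.51-fold. Fn1, also a fibroblast gene, was 1.39-fold lower. The classical monocyte genes Ly6c2 and Ccr2 did not pass, with log2 fold changes of -0.81 and -0.21, and Ly6c2 was called lower without Y-KO replicate 3 (-0.54, edgeR adjusted p = 4.87e-05). Plac8 and F13a1 of the same list did not pass either, at positive log2 fold changes of 0.70 and 1.22. For both, Y-KO replicate 3 lay below every Y-Scr library. The median log2 fold change of the list was 0.19. The calls of S100a4 and Fn1 were lost without at least 1 single library (edgeR adjusted p up to 0.112 and 0.201).

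Genes of tissue-resident macrophages mostly did not pass. Of 12, 9 could be tested and 1 was higher, Clec10a, a galactose-type lectin gene, at 25.7 ± 6.10 CPM in Y-KO, against 14.6 ± 1.24 CPM in Y-Scr (SD, n = 3 each; edgeR adjusted p = 0.0202). The Clec10a call was lost without any 1 library other than Y-KO replicate 3 (edgeR adjusted p from 0.0587 to 0.0971). Lyve1, Folr2 and Cd209f were too low to test, at no more than 0.318 CPM in any library. The median log2 fold change of the list was -0.18.

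Markers of other cell types moved with the groups, and their part in the results above was not tested. Of 13 pan-leukocyte genes 6 were lower and none higher, with a summed level of 1359 to 2900 CPM in Y-KO, against 3766 to 3902 CPM in Y-Scr. Of 17 T and NK cell genes 15 were lower, with 212 to 360 CPM in Y-KO, against 1176 to 1260 CPM in Y-Scr. The other 2, Cd8a and Cd8b1, did not pass, with log2 fold changes of 0.32 and -0.12. Of 11 neutrophil genes 7 were lower, with 531 to 1083 CPM in Y-KO, against 2000 to 2234 CPM in Y-Scr. Of 10 dendritic cell genes 1 was higher and 2 were lower, with 207 to 350 CPM in Y-KO, against 336 to 348 CPM in Y-Scr. The summed level of the 10 macrophage identity genes was 910, 944 and 465 CPM in Y-KO, against 460 to 467 CPM in Y-Scr. By this sum, Y-KO replicate 3 was at the Y-Scr level, though single genes ran from 50.9% (Cd163) to 180% (Fcgr1) of the Y-Scr mean. The same library had the lowest summed level for the pan-leukocyte, T and NK cell, neutrophil and dendritic cell lists. The counts of genes called rested on single libraries for some lists. Without any 1 Y-Scr library, 2 pan-leukocyte and 1 or 2 neutrophil genes were lower, against 13 or 14 T and NK cell genes. With the close pairs summed the counts were 1 pan-leukocyte, 0 neutrophil and 12 T and NK cell genes. Without Y-KO replicate 3 they were 9 pan-leukocyte, 8 neutrophil, 4 dendritic cell and 15 T and NK cell genes lower. In that fit 1 pan-leukocyte, 1 dendritic cell and 1 T and NK cell gene were higher. None of the defining markers of these lists was at 0 in all libraries.

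**Figure D5:**
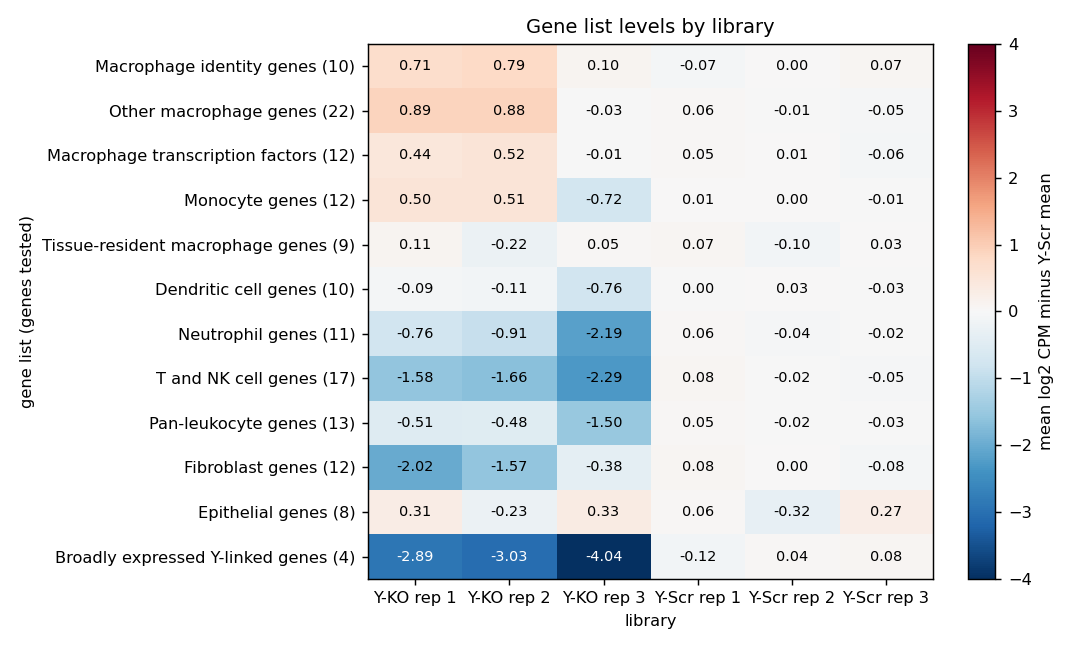
Mean log2 CPM of each gene list in each library minus its mean over the Y-Scr libraries, with the number of tested genes in brackets. In Y-KO replicates 1 and 2 the macrophage identity genes are 0.71 and 0.79 above Y-Scr while the T and NK cell genes stand at -1.58 and -1.66; in Y-KO replicate 3 the macrophage identity genes are 0.10 above.

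The genes with the profile most like the 10 were found by the root mean square distance, on the log2 scale over the 6 libraries, from their median centred profile. Among 9495 named genes with a mean of at least 10 CPM, the 8 nearest were Acvrl1, Tgfbi, H2-Aa, Hilpda, Slc35f6, Cd74, Tars and Nolc1, at distances from 0.0485 to 0.0834. Members themselves lay at 0.0837 for Mrc1, 0.0951 for Csf1r and 0.104 for Cd68, and at 1.31 for Cd163. H2-Aa and Cd74 encode an MHC class II chain and the invariant chain of antigen-presenting cells. H2-Aa stood at 978, 986 and 601 CPM in Y-KO, against 511, 495 and 495 CPM in Y-Scr. Tgfbi, which encodes a secreted matrix protein, had 920, 899 and 459 CPM in Y-KO, against 471, 450 and 454 CPM in Y-Scr. Tars, a threonyl-tRNA synthetase gene, and Nolc1, a nucleolar protein gene, are expressed in all cell types, so the profile was not limited to macrophage genes.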

How the data were processed

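RNA-seq libraries of sorted CD45-negative tumour cells were poly-A selected and stranded, per the labels' protocols. The authors deposited raw read counts per gene. Per the file headers these came from featureCounts 1.5.3 with the Ensembl release 112 annotation of GRCm39 and no other option, so strand was not used and reads fitting several places or genes were left out. The submitters' processing notes also list FastQC 0.12.1, MultiQC 1.13, Trimmomatic 0.39 and STAR 2.5.2b. The deposited table also gives gene lengths.

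Symbols were matched by gene ID to an older annotation (51880 of 57186 IDs). Groups followed the titles. Deposited counts went into edgeR 4.0.16 (R 4.3.3): filterByExpr at 10 counts and a total of at least 15, TMM scaling, and the quasi-likelihood test with group alone in the model. The code was tested on simulated data. The SE is the size of the log2 fold change divided by the square root of F. CPM were scaled by TMM, and log2 CPM used a prior count of 2. Medians of library ratios over all genes used a pseudocount of 0.05 CPM. The chi-square per gene used genes with at least 2000 counts over a pair.

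Alternatives were DESeq2 1.42.0, limma 3.58.1 (voom), other scalings and filters, the replicate block, summed close pairs and each library left out. The members, lists and alternatives were chosen with earlier results of these data known. The text names all members, their families, up to 4 genes with the smallest p in each list described, and the 8 nearest genes by profile. Other genes were named after their values were seen: Spi1, Ly6c2, Ccr2, Plac8, F13a1, Lyve1, Folr2, Cd209f, Cd8a and Cd8b1. Some genes of these lists are not reported here. The lowest count of a member in a library was 67 (Cd163). Plots were drawn with matplotlib 3.10.9.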

Additional observations from a re-analysis of the deposited data

How the results depend on the processing

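Of the 10 genes, all kept their direction under all 14 alternatives, except Adgre1 without Y-KO replicate 2 (log2 fold change -0.033). Fcgr1 and Aif1 passed in 13 of 14, Cd163 in 9, Mrc1 and Mertk in 6, Csf1r and Cd68 in 3, Maf in 2, Adgre1 in 1 and Ms4a7 in none. The cause of each change below was not tested. The summed and leave-one-out fits also had fewer samples than the main fit. The genes called numbered 730 higher and 2255 lower with library size alone as the scaling, which moved the median of all genes to -0.17, so that 24.5% of calls were higher against 48.6%. With the close pairs summed they numbered 136 higher and 360 lower, the macrophage identity genes 0 and 0, and the genes of the other lists together 5 higher and 31 lower. Of the macrophage identity genes called higher, 2 were left with the replicate block, 2 with library size alone and 7 with no filter on low counts, against 4. The log2 fold changes that lost their call with the close pairs summed were 0.73 for Mrc1, -1.29 for Cd163, 1.12 for Aif1, 1.63 for Fcgr1 and 0.98 for Mertk. With library size alone Mrc1 was at 0.70 and Mertk at 0.84. Calls were gained with no filter by Csf1r (0.61), Cd68 (0.65) and Maf (0.61), and with DESeq2 by Csf1r (0.63) and Cd68 (0.67).

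The replicate block, with Mrc1 at 0.79 and Mertk at 0.98 and both calls lost, rests on shared numbers alone. Deviations of same-numbered libraries from their group means had correlations of -0.008, 0.005 and -0.015 across genes. These showed no sign that the numbers pair the libraries, but a weak pairing could be missed. Leaving out each library in turn gave 461 to 3029 genes higher and 560 to 3364 lower, 2 to 8 of the macrophage identity genes higher and 0 to 1 lower, and 13 to 64 genes of the other lists higher. The log2 fold change then ran from -0.03 to 0.43 for Adgre1, 0.45 to 0.88 for Csf1r, 0.46 to 0.92 for Cd68, 0.69 to 1.10 for Mrc1, -1.85 to -1.18 for Cd163, 0.83 to 1.18 for Mertk and 0.44 to 0.92 for Maf. The highest counts of all genes called, and the single call of Adgre1, came without Y-KO replicate 3.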

Other observations

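Of 16 genes of the lysosome, the compartment in which the Cd68 protein resides, 7 rose and 2 fell. The count was 10 higher and 2 lower without Y-KO replicate 3, 3 to 5 higher and 0 to 2 lower without any 1 of the other libraries, and 3 higher and 2 lower with the replicate block or with library size alone. The protease gene Ctsl rose 2.04-fold to 853 ± 133 CPM in Y-KO, against 418 ± 13.1 CPM in Y-Scr, and the progranulin gene Grn rose 1.79-fold to 966 ± 43.5 CPM in Y-KO, against 538 ± 13.3 CPM in Y-Scr (SD, n = 3 each; edgeR adjusted p = 0.000804 and 0.000171). Both calls held under all 14 alternatives. In Y-KO replicate 3 Grn stood at 930 CPM, against 955 and 1014 CPM in replicates 1 and 2, unlike Cd68. The lipase gene Lipa fell, with a log2 fold change of -0.49, a call lost without Y-Scr replicate 3 (edgeR adjusted p = 0.0581). These genes are expressed by most cell types.

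Of the remaining lists, all 8 mast cell genes and 5 of 7 tested B and plasma cell genes were lower in Y-KO, 4 of 12 fibroblast genes were lower (8 without Y-KO replicate 3), 4 of 8 epithelial genes were higher and 1 lower, and none of 7 tested endothelial genes passed.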
